A study of Mus musculus with 2 samples.

Results

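The 38 genes described here encode the machinery of autophagy and its cargo receptors, and were taken by gene symbol from the 55488 gene rows of both count matrices. All 38 symbols were found, 5 of the ULK initiation complex, 6 of the PI3K nucleation complexes, 6 PI3P effectors and lipid transfer proteins, 7 conjugation enzymes, 5 LC3 and GABARAP proteins, 5 ubiquitin-binding and related receptors, and 4 mitophagy receptors or regulators. The study used droplet single-cell RNA sequencing of newborn (P0) mouse kidneys. The Flcn KO library came from Six2Cre; Flcn flox/flox kidneys. The library labelled Flcn WT was, by the study's design text, heterozygous (Six2Cre; Flcn flox/+), so both libraries carried the Cre and at least 1 floxed allele. Six2Cre acts in the nephron progenitors and therefore in the epithelia that derive from them (podocytes and proximal, loop of Henle and distal tubule), and not in the ureteric bud, stroma, vessels or immune cells, which keep the allele. The labels name the tissue as embryonic kidney and do not say how many animals went into a library. With 1 library per genotype no difference had a replicate check, no test between genotypes was possible, and every interval below covers counting error only.

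Macroautophagy encloses cytoplasm in a double membrane that fuses with the lysosome. The ULK kinase complex starts the process, the class III PI3K complexes mark the growing membrane with PI3P, WIPI and ATG2 proteins bring in lipid, and a ubiquitin-like conjugation system attaches LC3 and GABARAP proteins to the membrane, where receptors such as p62 and optineurin bind them together with ubiquitinated cargo. Folliculin, the product of Flcn, is known to act on RagC and RagD at the lysosome, and cells without it keep the transcription factors TFEB and TFE3 in the nucleus, whose known targets include lysosomal and autophagy genes.

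The KO library held 149679281 UMIs in 5991 barcodes and the WT library 147390790 UMIs in 5572 barcodes, of which 4798 KO and 4000 WT cells were kept, with a median of 18458 and 20968 UMIs. The libraries shared 5 barcodes. Cells were clustered over both libraries and named from marker genes. The 6 classes of the Six2 lineage were loop of Henle (203 KO and 160 WT cells), distal tubule (60 and 101), proximal tubule (260 and 327), podocyte (113 and 190), early nephron (352 and 372) and nephron progenitor (503 and 521). The 6 classes outside it were ureteric bud and collecting duct, intercalated cells, stroma, mural cells, endothelium and immune cells. Their pool sums UMIs over these classes, so its ratios also carry the mix of classes, which differed between the libraries. Stroma had 1863 KO and 1011 WT cells, and ureteric bud and collecting duct 84 and 186. The intervals of pooled ratios do not cover this. Values are CPM, UMIs scaled to a fixed total of nuclear-encoded UMIs, summed over the cells of a class, and ratios are KO over WT with an exact 95% interval. Flcn itself had 108 KO and 64 WT UMIs in loop of Henle cells (9.43 and 7.29 CPM, ratio 1.29, 0.941 to 1.79) and 171 KO and 325 WT UMIs in proximal tubule (ratio 0.552, 0.456 to 0.666), while the classes outside the lineage stood at a ratio of 0.984 (0.867 to 1.12). In podocytes, a class of the Six2 lineage, Flcn had 115 KO and 110 WT UMIs (37.1 and 20.9 CPM, ratio 1.78, 1.36 to 2.33). The files do not name the floxed exons, and 3′ counts outside them do not check the deletion.

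In loop of Henle cells, 5 members were at least 1.5-fold higher in KO than in WT cells, namely Optn, Sqstm1, Gabarap, Gabarapl1 and Map1lc3b, and 0 were at least 1.5-fold lower. Over the 16971 genes with at least 10 UMIs in this class, 13.4% were at least 1.5-fold higher and 19.4% at least 1.5-fold lower, so 5 of 38 is close to the background, and 0 of 38 is below it. The 38 members had a median log2 ratio of 0.11, against -0.06 over all genes tested, and 26 of the 38 lay above a ratio of 1, against 45.8% of all genes. In the pooled classes outside the lineage the median was 0.08, against -0.01 over all genes, and 25 of the 38 lay above 1, against 48.2%. Without the 5 genes named above, the median of the other 33 was 0.08 in loop of Henle cells and 0.08 in the pooled outside classes. The 5 have the highest loop ratios, so leaving them out lowers the loop median by that choice. The medians over all genes also differed (-0.06 and -0.01), so the equal values do not show equal behaviour. The 5 members past the threshold were LC3 or GABARAP proteins or the receptors that bind them. As their number is close to the background, this describes the 5 genes and not the pathway. The 24 members of the ULK, PI3K, PI3P and conjugation steps ranged in ratio over 0.876 to 1.48, with Wdr45 at the top, just under the threshold.

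The map of log2 ratios shows Map1lc3b, Gabarap, Sqstm1 and Optn higher in most nephron classes than in the classes outside the lineage. The receptors as a block did not stand apart: their median log2 ratio in loop of Henle cells was 0.14, against 0.16 for the PI3P effectors and 0.22 for the conjugation enzymes.

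**Figure D1:**
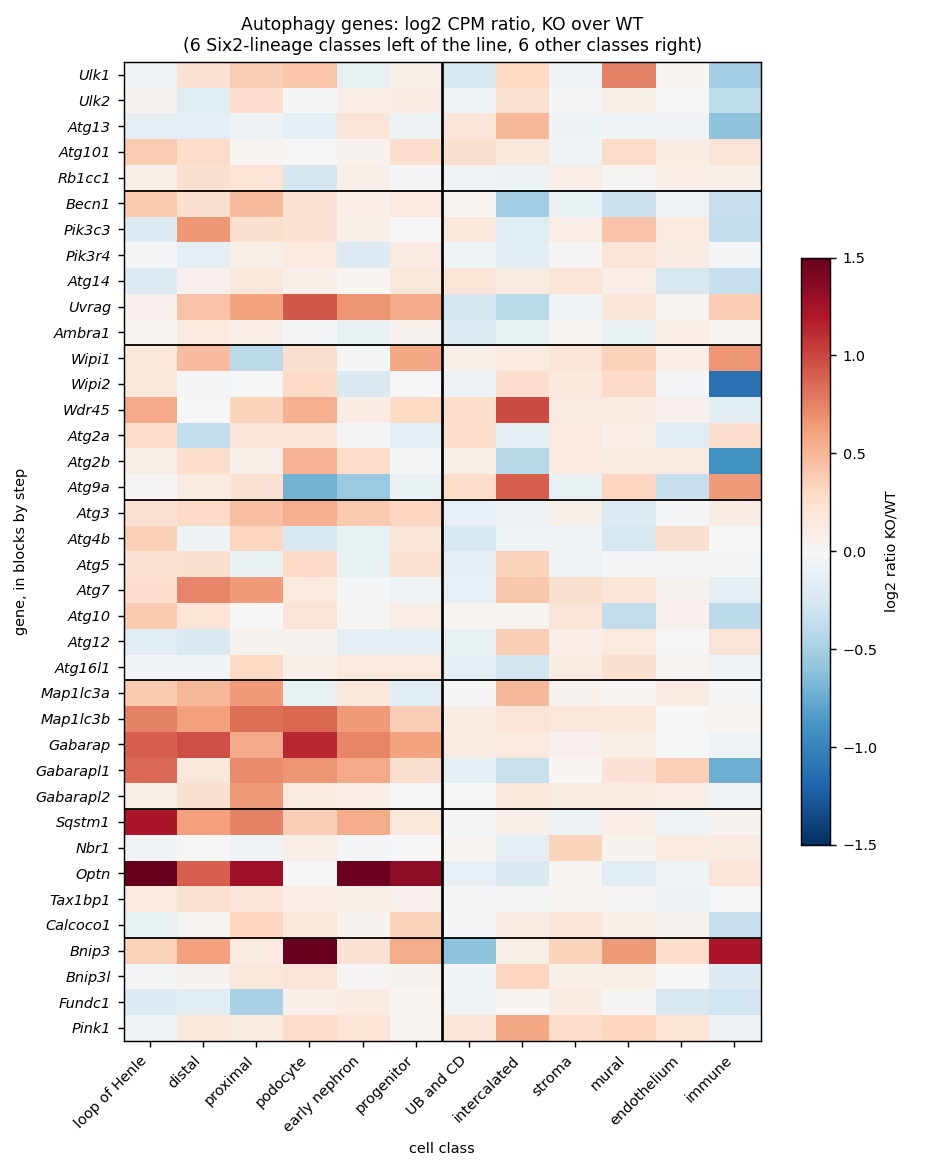
Log2 ratio of CPM, KO over WT, of the 38 autophagy genes (rows, in blocks by step) in 12 cell classes (columns, with the 6 classes of the Six2 lineage left of the line); the colour scale ends at a log2 ratio of 1.5 in either direction. Optn and Gabarap are high in the nephron classes, except Optn in podocytes (ratio 0.995).

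The promoters of the members could be read from RefSeq for 31 of the 38 genes. Those of Optn, Sqstm1 and Gabarapl1 are shown, for the receptors and for 1 LC3 or GABARAP gene among the 5 genes named above. Each is the 250 bases before the gene's start on GRCm38.p6, 5′ to 3′ (Optn at chr2:5064118-5064367, minus strand; Sqstm1 at chr11:50210821-50211070, minus strand; Gabarapl1 at chr6:129532942-129533191, plus strand).
Optn: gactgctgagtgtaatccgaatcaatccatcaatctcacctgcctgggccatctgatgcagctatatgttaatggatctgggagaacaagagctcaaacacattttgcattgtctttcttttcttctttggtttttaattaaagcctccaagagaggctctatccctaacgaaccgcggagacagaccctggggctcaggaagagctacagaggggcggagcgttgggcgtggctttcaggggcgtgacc
Sqstm1: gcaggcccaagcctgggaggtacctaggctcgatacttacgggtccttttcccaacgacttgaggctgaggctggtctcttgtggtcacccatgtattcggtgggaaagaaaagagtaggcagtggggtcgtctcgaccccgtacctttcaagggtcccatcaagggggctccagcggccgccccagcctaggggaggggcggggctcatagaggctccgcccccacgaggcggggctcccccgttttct
Gabarapl1: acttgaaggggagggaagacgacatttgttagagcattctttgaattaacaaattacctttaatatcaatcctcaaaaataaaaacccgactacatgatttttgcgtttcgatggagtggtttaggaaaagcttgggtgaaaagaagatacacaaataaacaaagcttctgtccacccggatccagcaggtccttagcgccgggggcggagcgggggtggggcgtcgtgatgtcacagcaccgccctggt

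A set of 3 motifs was searched on both strands of these 250-base windows. CACGTG, the letters that TFEB and TFE3 are known to bind, stood in 6.02% of 32851 promoters and in those of 4 member genes, Atg3, Atg5, Atg7 and Bnip3. TCATGTG, an extended E-box of the same factor family, stood in 3.25% of promoters and in 0 member promoters, and TGACNNNGC, the antioxidant response element, in 10.2% of promoters and in those of 3 member genes, Atg13, Tax1bp1 and Ulk2. No member promoter held more than 1 of the motifs, and a match is a description of letters only. The windows of 30 bases that hold CACGTG, marked in capitals, are given below for comparison with the 3 promoters above, which hold none of the motifs. For Atg7 the start in the RefSeq table lies inside the gene as the GRCm38 annotation gives it (114643097 to 114860614), so its window belongs to another start than the first (Atg3 at chr16:45158723-45158752, plus strand; Atg5 at chr10:44268309-44268338, plus strand; Atg7 at chr6:114670952-114670981, plus strand; Bnip3 at chr7:138909597-138909626, minus strand).
Atg3: gcctccttttgtCACGTGtcctgggagagt
Atg5: agggcggagcgcttgcCACGTGgtcttggt
Atg7: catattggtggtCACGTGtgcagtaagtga
Bnip3: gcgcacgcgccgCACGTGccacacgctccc

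The 5 members of the ULK complex, which starts autophagosome formation, ranged in KO over WT ratio over 0.912 to 1.31 in loop of Henle cells, and 3 lay above 1. Ulk1, the kinase, had 247 KO and 195 WT UMIs (21.6 and 22.2 CPM, ratio 0.971, 0.801 to 1.18), and its paralog Ulk2 had 457 and 337 UMIs (39.9 and 38.4 CPM, ratio 1.04). The scaffold Rb1cc1 (FIP200) had 1835 KO and 1332 WT UMIs (ratio 1.06), and Atg13 a ratio of 0.912. Atg101 stood highest at 1.31 (1.13 to 1.51). In mural cells, a class outside the Six2 lineage, Ulk1 had 86 KO and 33 WT UMIs (ratio 1.69, 1.12 to 2.61).

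Among the PI3K nucleation genes in loop of Henle cells, ratios ran over 0.876 to 1.32. Becn1 (Beclin 1), the scaffold shared by both PI3K complexes, had 1301 KO and 758 WT UMIs (114 and 86.3 CPM, ratio 1.32, 1.20 to 1.44). Becn1 was above 1 in 6 of 6 nephron classes, and its ratio there was above that of every outside class, where the pooled value was 0.867 (0.817 to 0.921). The share of all genes with that pattern was not counted, so it describes Becn1 only. The lipid kinase Pik3c3 (ratio 0.876), its partner Pik3r4 (0.988), the autophagy-specific subunit Atg14 (0.877) and Ambra1 (1.03) did not share that pattern in loop of Henle cells.

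Uvrag, the subunit of the PI3K complex that acts in endosome maturation, stood out by class. In podocytes it had 748 KO and 665 WT UMIs (241 and 126 CPM, ratio 1.91, 1.72 to 2.13), in early nephron 2487 and 2113 UMIs (146 and 92.5 CPM, ratio 1.58, 1.49 to 1.68) and in proximal tubule 1979 and 1361 UMIs (ratio 1.53, 1.42 to 1.64, reaching 1.5 in 5 of 10 alternatives). In loop of Henle cells it was near 1, with 1190 KO and 871 WT UMIs (104 and 99.2 CPM, ratio 1.05, 0.959 to 1.14). Uvrag levels were highest in immune cells and then endothelium in both libraries.

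All 6 PI3P effectors and lipid transfer genes lay above 1 in loop of Henle cells, between 1.02 and 1.48, without one reaching 1.5. This was not particular to the loop: 5 of 6 lay above 1 in the pooled outside classes and 6 of 6 in mural cells. The median log2 ratio was 0.16 both in loop of Henle cells and in the pooled outside classes. Of all genes tested in loop cells, 45.8% lay above 1. Wdr45 (WIPI4), a PI3P-binding protein that partners ATG2, had 280 KO and 145 WT UMIs (24.4 and 16.5 CPM, ratio 1.48, 1.21 to 1.82). Its paralogs Wipi1 and Wipi2 stood at 1.12 and 1.12, and the lipid transfer proteins Atg2a and Atg2b at 1.21 and 1.06. The scramblase Atg9a had few UMIs, 28 KO and 21 WT in this class, and its podocyte ratio of 0.567 rested on 4 KO and 12 WT UMIs (0.133 to 1.87).

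The conjugation enzymes, which couple ATG12 to ATG5 and LC3 to lipid, ranged over 0.892 to 1.31 in loop of Henle cells, and 5 of 7 lay above 1. Atg7, the E1-like enzyme of both reactions, was at least 1.5-fold higher in 2 nephron classes. It had 89 KO and 86 WT UMIs in distal tubule (36.3 and 21.8 CPM, ratio 1.67, 1.22 to 2.27) and 407 and 275 UMIs in proximal tubule (30.1 and 19.4 CPM, ratio 1.55, 1.33 to 1.82), against a ratio of 0.963 in progenitors. The proximal ratio reached 1.5 in 1 of 10 alternatives, one that left out no cells (range 0.870 to 1.55), and the distal one in 5 of 7 (0.906 to 3.89), and both lay below 1 when cells were thinned to 3000 UMIs. Atg3, the E2-like enzyme for LC3, was above 1 in 6 of 6 nephron classes (1.17 to 1.46) and its ratio there exceeded that of every outside class (0.870 to 1.08). How often this holds over all genes was not counted. In loop of Henle cells it had 930 KO and 610 WT UMIs (81.2 and 69.5 CPM, ratio 1.17).

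The LC3 and GABARAP proteins, which are conjugated to the autophagosome membrane and recruit receptors, were the step with the highest median in loop of Henle cells (log2 ratio 0.74). Gabarap had 6510 KO and 2689 WT UMIs there (568 and 306 CPM, ratio 1.86, 1.77 to 1.94), and its ratio in podocytes was 2.19 (2.06 to 2.33), from 2450 and 1905 UMIs. It was at least 1.5-fold higher in 5 of 6 nephron classes, and proximal tubule stood at 1.48 (1.44 to 1.52). In the pooled outside classes its ratio was 1.06 (1.03 to 1.08), so the loop ratio was 1.76 times the outside ratio (1.67 to 1.85). Gabarap is the founding member of its subfamily.

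Gabarapl1, its close paralog, had 3213 KO and 1367 WT UMIs in loop of Henle cells (281 and 156 CPM, ratio 1.80, 1.69 to 1.92). Its ratio in the pooled outside classes was 0.965 (0.919 to 1.01), which puts the loop ratio at 1.87 times it (1.72 to 2.02). The ratio was 1.64 in proximal tubule and 1.58 in podocytes, but 1.12 in distal tubule, where KO cells had 302 CPM and WT cells 269 CPM.

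Map1lc3b (LC3B), the most studied marker protein of autophagosomes, had 2995 KO and 1370 WT UMIs in loop of Henle cells (262 and 156 CPM, ratio 1.68, 1.57 to 1.79). It was at least 1.5-fold higher in 5 of 6 nephron classes, with the highest ratios in podocytes (1.81, 1.671 to 1.962) and proximal tubule (1.78, 1.71 to 1.86), and stood at 1.29 in progenitors. The paralogs differed from it: Map1lc3a had 1173 KO and 683 WT UMIs (ratio 1.32, 1.20 to 1.45) and Gabarapl2 had 1866 and 1355 UMIs (ratio 1.06, 0.984 to 1.13). Both paralogs were higher in proximal tubule, at 1.55 (1.44 to 1.68) and 1.56 (1.47 to 1.66). The files also hold 11 rows for LC3 and GABARAP pseudogenes, with only 93 KO and 76 WT UMIs in the whole libraries.

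The levels by class show KO above WT across the nephron classes for Map1lc3b, Gabarap and Gabarapl1, and KO and WT closer together in the classes right of the line, except for Gabarapl1, whose ratios there ran over 0.609 in immune cells to 1.28 in endothelium.

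**Figure D2:**
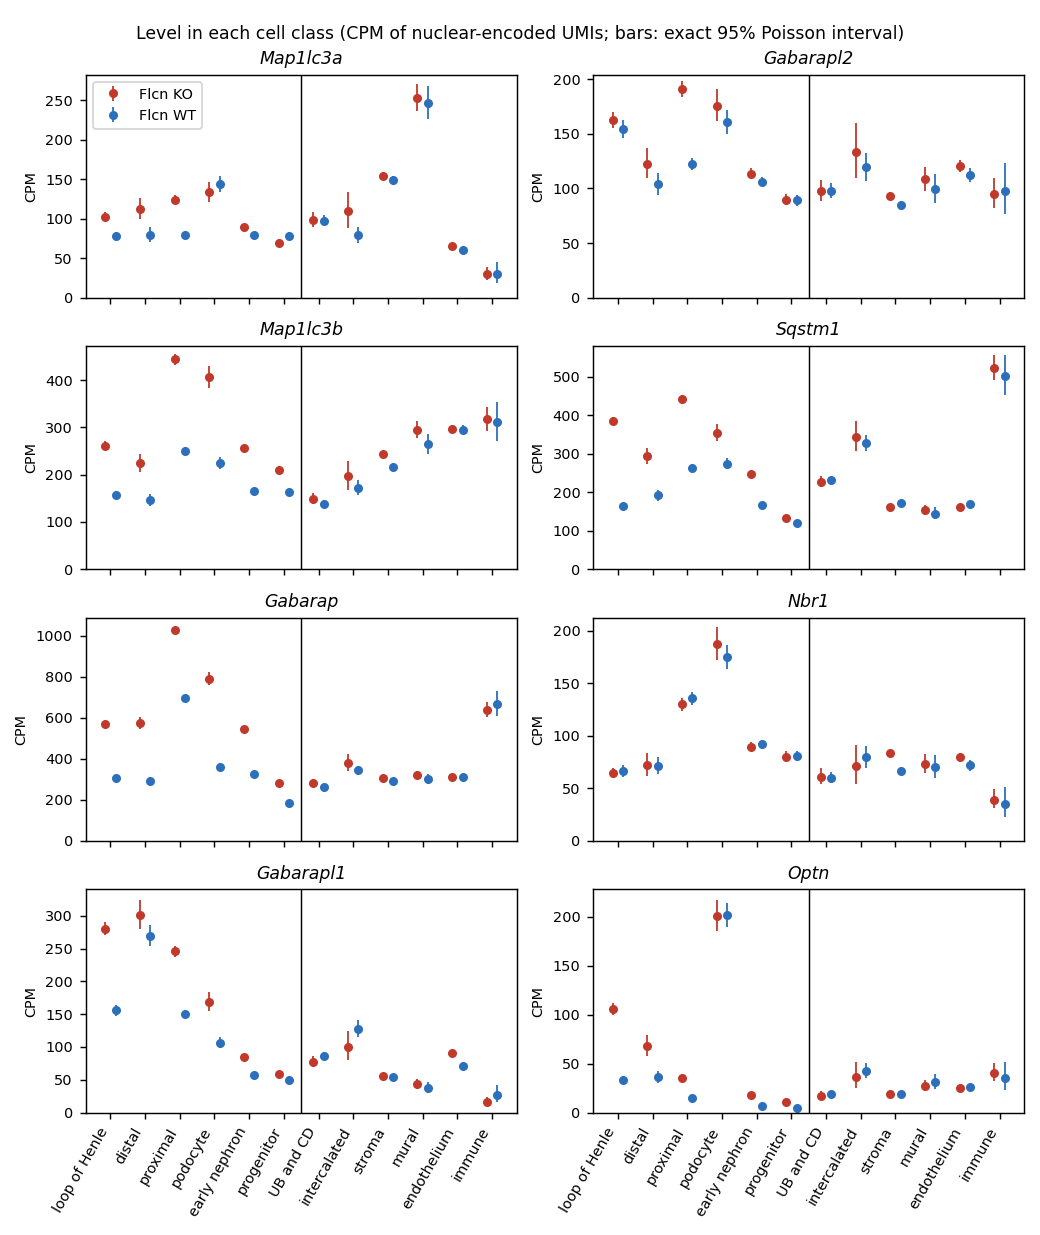
CPM of 8 autophagy genes in each of 12 cell classes in KO (red, left) and WT (blue, right) cells, with exact 95% Poisson intervals; the line divides the Six2 lineage from the other classes. Optn in loop of Henle cells is at 105 CPM in KO and 33.1 CPM in WT cells, while podocytes stand at 201 and 202 CPM.

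Optn encodes optineurin, a ubiquitin-binding receptor that takes part in mitophagy and in clearing bacteria. It had 1206 KO and 291 WT UMIs in loop of Henle cells (105 and 33.1 CPM), a ratio of 3.18 (2.79 to 3.62) and the highest of the 38 members. Its ratio was also high in early nephron (2.79, 2.29 to 3.41), progenitors (2.54, 1.859 to 3.502), proximal tubule (2.41, 2.05 to 2.86) and distal tubule (1.87, 1.48 to 2.35).

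Podocytes were the exception. There Optn was at its highest level in both libraries, with 622 KO and 1064 WT UMIs (201 and 202 CPM, ratio 0.995, 0.900 to 1.10). The podocyte ratio ran over 0.948 to 1.33 across 8 alternatives, the highest with cells thinned to 3000 UMIs. In the outside classes the ratios lay between 0.852 and 1.16 (pooled 0.960, 0.883 to 1.04), so the loop ratio was 3.31 times the outside one (2.84 to 3.85). Optn lies on chromosome 2 at 5020642 to 5064051, minus strand, in GRCm38.

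Because Optn was also high in podocytes, podocyte markers in the loop of Henle class were examined. The 10 markers summed to 1124 CPM in KO and 398 CPM in WT loop cells, but 12555 KO and 2854 WT of those UMIs belonged to Magi2 alone. Nphs1, which encodes nephrin of the podocyte slit diaphragm, was near 0 in the class (2 KO and 5 WT UMIs). The 12 loop markers summed to 13387 CPM in KO and 13347 CPM in WT cells, but only 3 of the 12 were higher in KO cells. Umod was at 3151 CPM in KO and 927 CPM in WT cells and Ptger3 at 910 and 284 CPM, while Slc12a1 was at 4499 CPM in KO and 7326 CPM in WT cells and Cldn16 at 37.5 and 96.5 CPM. The part of these differences in the autophagy ratios was not tested.

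Sqstm1 encodes p62, the receptor that gathers ubiquitinated cargo and is itself degraded with it. In loop of Henle cells it had 4403 KO and 1442 WT UMIs (384 and 164 CPM, ratio 2.34, 2.205 to 2.486). It was at least 1.5-fold higher in 3 nephron classes, with proximal tubule at 1.68 (1.61 to 1.75) and distal tubule at 1.53 (1.38 to 1.70), and above 1 but smaller in early nephron (1.47), podocytes (1.29) and progenitors (1.12). In the pooled outside classes it was at 0.915 (0.889 to 0.942). That is below the ratio of each class in the pool (0.946 to 1.07), so the pooled value also carries the mix of classes. Its gene lies on chromosome 11 at 50199366 to 50210827, minus strand, in GRCm38.

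The remaining receptors stayed under 1.5 in loop of Henle cells. Nbr1, which binds p62, had 741 KO and 582 WT UMIs in loop of Henle cells (ratio 0.976, 0.874 to 1.09). Tax1bp1 stood at 1.10, and like Becn1 and Atg3 it was above 1 in 6 of 6 nephron classes (1.04 to 1.18) with each ratio above every outside class (0.951 to 1.02). The gap was small, and the share of all genes with such a separation was not counted. Calcoco1, a receptor in selective autophagy of the endoplasmic reticulum, was at 0.927.

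Among the mitophagy genes, ratios in loop of Henle cells ran over 0.874 to 1.27. Bnip3, an outer membrane receptor of mitochondria, had 590 KO and 356 WT UMIs (51.5 and 40.6 CPM, ratio 1.27, 1.11 to 1.45). It was at least 1.5-fold higher in podocytes, where it had 84 KO and 49 WT UMIs (27.1 and 9.29 CPM, ratio 2.92, 2.03 to 4.24), and in distal tubule (1.53, 1.21 to 1.95, reaching 1.5 in 4 of 7 alternatives). Outside the lineage it ran from 0.657 in ureteric bud and collecting duct to 2.45 in immune cells, where 9 WT UMIs carry the ratio (1.21 to 5.63). Its paralog Bnip3l was at 0.991 in loop of Henle cells, and the kinase Pink1 at 0.955.

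The ratios in loop of Henle cells are set beside those of the pooled outside classes below. The 5 genes were named by their loop ratio, so their place past 1.5 follows from that choice. Relative to the pooled outside ratio, Becn1 (1.52 times, 1.36 to 1.69) and Atg10 (1.48 times, 1.29 to 1.71) stood beside Map1lc3b (1.44 times, 1.34 to 1.54). These intervals overlap, so the order of the 3 genes is not settled. The pooled ratio also carries the mix of classes: for Map1lc3b it was 1.16, above each outside class (at most 1.14).

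**Figure D3:**
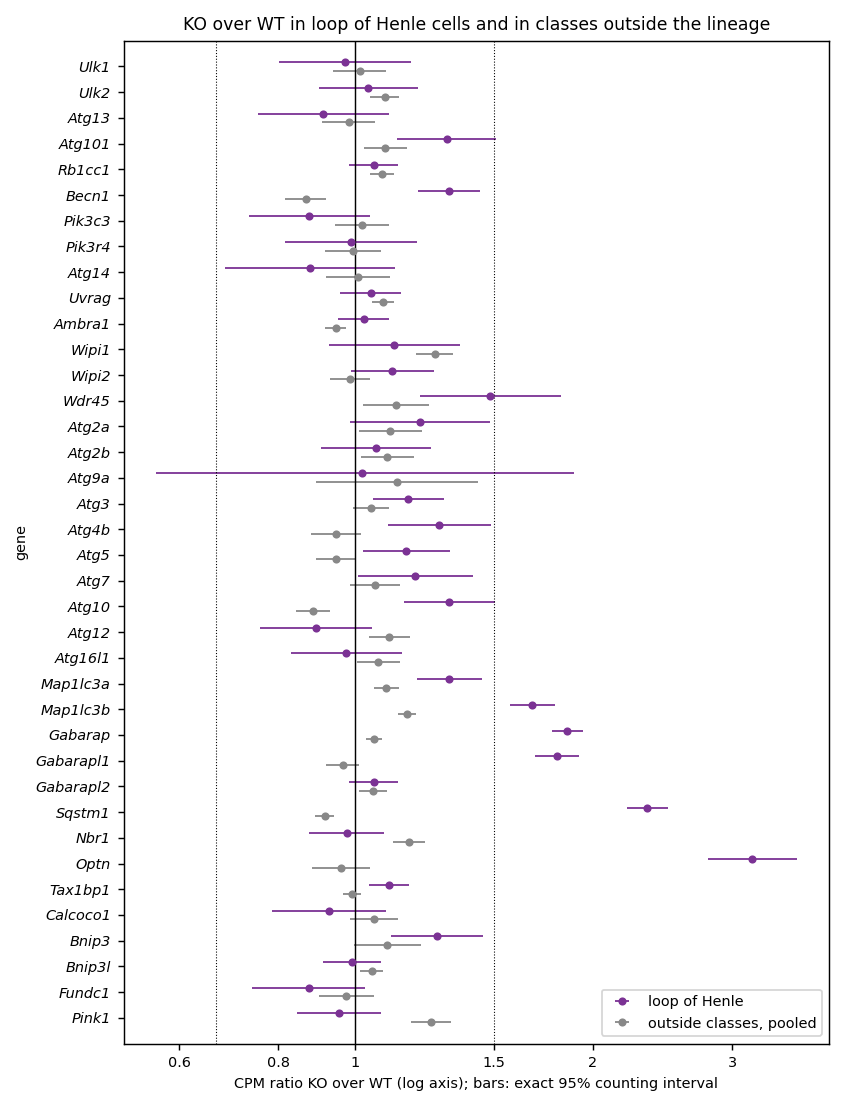
KO over WT ratio of CPM (log axis) of the 38 genes in loop of Henle cells (purple) and in the outside classes taken as 1 pool (grey), with exact 95% counting intervals; dotted lines mark 1.5-fold. Optn, Sqstm1, Gabarap, Gabarapl1 and Map1lc3b lie past the right line in loop of Henle cells, and their outside ratios lie between 0.915 and 1.16.

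The other nephron classes gave the following counts over the 38 members. In distal tubule 7 were at least 1.5-fold higher (background 14.9%), 0 at least 1.5-fold lower (14.2%) and 28 above 1 (51.7%), with a median log2 ratio of 0.21 against 0.03 over all genes. The distal class itself differed between the libraries: its 10 markers summed to 2141 CPM in KO and 8082 CPM in WT cells with 0 of 10 higher, 13 immune markers to 278 and 42.3 CPM, 6 erythroid markers to 416 and 107 CPM, and the median depth was 38648 UMIs in KO and 16023 in WT cells. Their part in the distal ratios was not tested. In proximal tubule 8 were higher (18.3%), 0 lower (15.2%) and 32 above 1 (54.1%), with a median of 0.21 against 0.06. In podocytes 5 were higher (12.4%), 1, Atg9a, was lower (12.6%) and 29 lay above 1 (53.0%). The podocyte class also differed between the libraries. Its 10 markers summed to 30884 CPM in KO and 43530 CPM in WT cells with 1 of 10 higher, and 6 erythroid markers to 116 and 13.5 CPM. The part of these differences in the podocyte ratios was not tested.

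In early nephron 4 members were at least 1.5-fold higher (7.98%), 0 lower (11.2%) and 26 above 1 (44.0%). This class also held proximal tubule markers, 16 of which summed to 4111 CPM in KO and 3618 CPM in WT cells. Its own 10 markers summed to 805 and 915 CPM. A cluster of 206 KO and 222 WT cells in it scored 0.444 for early nephron and 0.383 for proximal tubule. The part of this in the early nephron ratios was not tested. In progenitors 2 were higher (8.90%), 0 lower (11.3%) and 29 above 1 (50.9%). The pooled outside classes had 0 higher (10.8%), 0 lower (12.5%) and 25 above 1 (48.2%). In the nephron classes the counts of higher members were near the background. Members at least 1.5-fold lower were fewer than the background in the nephron classes and in the pooled outside classes alike. The background holds genes at any level from 10 UMIs up and was not matched to the members' levels.

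The difference in loop of Henle cells was also seen in the median cell, which had 98.2 CPM of Optn in KO and 20.3 CPM in WT cells, and the median cell had 377 CPM of Sqstm1 in KO and 128 CPM in WT cells. For Gabarap the medians were 547 and 275 CPM. The median depth was 50701 UMIs in KO and 42257 in WT loop cells.

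At a finer clustering the loop cells of the KO library split; the comparison within the shared cluster was chosen after seeing the data. One cluster held 159 KO and 0 WT cells, and another held 37 KO and 147 WT cells. Within the shared cluster Optn was at 66.0 CPM in KO and 33.1 CPM in WT cells (ratio 1.996, 1.62 to 2.45), Gabarap at a ratio of 1.48 (1.37 to 1.59), Sqstm1 at 1.33 (1.20 to 1.48), Map1lc3b at 1.29 (1.15 to 1.43) and Gabarapl1 at 1.28 (1.14 to 1.43). All 5 ratios were smaller than in the whole class, and of the 5 Optn alone stayed at or above 1.5. Uvrag ran the other way: it was at 166 CPM in KO and 99.5 CPM in WT cells of the shared cluster (ratio 1.66, 1.47 to 1.89), and at 89.96 CPM in the cluster held by KO cells. Other members that lay above 1 in the whole class were below 1 in the shared cluster. These include Map1lc3a (0.781, 0.642 to 0.943), Gabarapl2 (0.754, 0.655 to 0.864), Becn1 (0.866, 0.725 to 1.03) and Atg3 (0.964, 0.798 to 1.16). Others lay above 1 there, among them Ambra1 (1.37, 1.22 to 1.53) and Atg4b (1.48, 1.17 to 1.86). Clusters are defined by the same genes, so this split is a description.

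**Figure D4:**
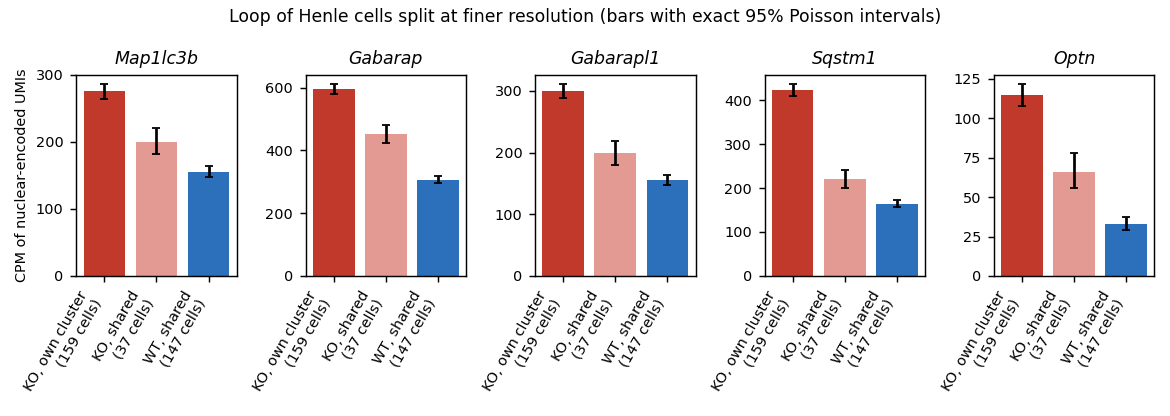
CPM of 5 autophagy genes in loop of Henle cells split at finer resolution, with exact 95% Poisson intervals: KO cells of their own cluster (159 cells), KO cells of the shared cluster (37 cells) and WT cells of the shared cluster (147 cells). KO cells of the shared cluster stand between the other 2 bars for each gene.

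Proximal tubule cells also fell into clusters that differed in their mix of libraries. One held 200 KO and 6 WT cells, another 23 KO and 197 WT cells, and the last 37 KO and 124 WT cells. The cluster held by KO cells had Havcr1, which encodes kidney injury molecule 1, as its leading gene, with Krt20 and Sprr1a among the top 10. The 16 proximal markers summed to 13392 CPM in KO and 22426 CPM in WT cells of the class, with 1 of 16 higher, and the part of this in the proximal ratios was not tested. In the last cluster, Optn was at 24.98 CPM in KO and 15.4 CPM in WT cells (ratio 1.62, 1.10 to 2.37), Gabarap at a ratio of 1.44, Sqstm1 at 1.40 and Map1lc3b at 1.38.

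Of other pathway genes in loop of Henle cells, the 14 further core genes had a median log2 ratio of -0.08, with 1 (Atg4d, a processing protease, 1.52) at least 1.5-fold higher. The 15 autophagosome-lysosome fusion genes had a median of 0.30, with 12 above 1 and 3 at least 1.5-fold higher: Arl8b, a lysosome positioning GTPase (1214 KO and 535 WT UMIs, ratio 1.74), the HOPS tether subunit Vps18 (1.66) and the late endosome GTPase Rab7 (1.54). Of 13 other selective receptors tested, 3 were at least 1.5-fold higher, the endoplasmic reticulum receptors Tex264 (1653 KO and 717 WT UMIs, ratio 1.77) and Ccpg1 (1.60), and Tollip (1.69), and 1, Stbd1, was at least 1.5-fold lower on 9 KO and 11 WT UMIs (0.627, 0.230 to 1.67). Of all genes tested in this class 13.4% were at least 1.5-fold higher, 19.4% at least 1.5-fold lower and 45.8% above 1, and no test was made of these short lists.

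Lists of stress-response genes were read beside them. Of the 11 hypoxia-response (HIF) genes tested, the median log2 ratio was -0.32, with Ndrg1 at 5.34 and Ero1l at 1.83, while Slc2a1, the glucose transporter, stood at 0.643. The 10 oxidative-stress (NRF2) genes had a median of 0.10, with Hmox1 at 2.02 and Slc7a11 at 0.275. Their part in the receptor values was not tested.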

How the data were processed

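Single-cell RNA of newborn mouse kidney was measured in 1 library per genotype. The deposited matrices hold raw UMI counts per gene and barcode, made with Cell Ranger 7.1.0 (KO) and 7.0.0 (WT), per the file headers, and with bcl2fastq 2.20.0, STAR 2.7.2a and GRCm38, per the submitters' processing notes. Barcodes needed at least 1000 UMIs, 500 genes and at most 20% mitochondrial UMIs (5040 KO and 4187 WT barcodes). Scrublet called 2 KO and 3 WT barcodes, so barcodes were removed by rank of score up to the expected doublet rate (242 KO and 187 WT). Cells were clustered with scanpy 1.11.5 (2000 variable genes, 40 components, 20 neighbours, Leiden resolution 1, igraph 0.11.9) and named from markers; 457 KO and 602 WT cells stayed unnamed. Counts were summed per class and library. Ratio intervals were exact and conditional; log2 ratios used 0.5 added UMI; lists needed 10 UMIs. Members with at least 50 UMIs and a ratio of at least 1.5 (or the reciprocal) in loop of Henle, or in 2 or more other nephron classes, with the interval off 1, were described in full, with their paralogs. Scaling alternatives used edgeR 4.0.16 and DESeq2 1.42.0. The intervals were tested on simulated Poisson counts, the case for which they are built. This could not check spread between cells, animals or libraries. Members and lists were chosen with earlier results of these data known. Promoters came from RefSeq, GRCm38.p6; 31 of 38 genes matched.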

Additional observations from a re-analysis of the deposited data

How the results depend on the processing

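No paired analysis was possible because each genotype has 1 library. Each listed value was recomputed under alternatives of filtering, clustering, scaling, thinning and minimum counts. Of the medians and counts, 88 alternative values stayed within the interval of the main value or within 1.5 times the main count, and 9 moved out of it. The 88 include alternatives that could not differ. Dropping the minimum of UMIs changed nothing, as all 38 members passed it in each nephron class and in the outside pool. The proximal alternative that removed no cells is another. Of the log2 ratios of the members described in full, 363 alternative values stayed within the main interval and 101 moved out of it. Another 8 changed sign where the main interval excluded 0, and these are listed below. Thinning to 3000 UMIs per cell gave 10 members at least 1.5-fold higher and 1 lower in loop of Henle cells, and medians of 0.20 in early nephron and 0.21 in progenitors; a 2-fold threshold gave 2 higher. The proximal tubule median was 0.11 with at most 10% mitochondrial UMIs and 0.12 with doublet calls kept, and the distal median was 0.28 with the mean of per-cell CPM. Without the loop clusters held by 1 library (added after seeing the data) 3 members were at least 1.5-fold higher (Optn, Uvrag and Atg9a). Atg9a had few UMIs, 8 KO and 21 WT in the shared loop cluster (0.597 to 3.66). Leaving out proximal clusters of resolution 2 held by 1 library removed no cells. Among log2 ratios whose main interval excluded 0, the sign changed for Gabarapl1 in distal tubule (-0.28, mitochondrial filter), for Atg7 in distal (-0.14) and proximal tubule (-0.20), Bnip3 in proximal tubule (-0.15) and Gabarap in the outside classes (-0.0013) when thinned, for Uvrag (-0.0172) and Sqstm1 (0.0113) in outside classes weighted equally, and for Bnip3 in loop of Henle (-0.0439) without 1-library clusters. In loop of Henle cells Optn stayed at least 1.5-fold higher in 9 of 9 alternatives (1.98 to 3.42), Sqstm1, Gabarap and Gabarapl1 in 8 of 9 and Map1lc3b in 6 of 9. The cause was not tested.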

Other observations

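Cells that markers did not name held the same genes at values not used above. In a cluster of 77 KO and 75 WT cells led by Tmem132c and Elmod1, Gabarap was at 674 CPM in KO and 349 CPM in WT cells (ratio 1.93, 1.79 to 2.09), Map1lc3b at a ratio of 1.72 (1.55 to 1.91), Optn at 1.64 (1.28 to 2.12) and Uvrag at 1.56 (1.38 to 1.76). In a cycling cluster of 165 KO and 230 WT cells led by Wnt4 and Lhx1, Optn was at 11.8 CPM in KO and 5.46 CPM in WT cells (ratio 2.16, 1.53 to 3.08), Map1lc3b at 1.52 (1.40 to 1.64) and Gabarap at 1.48 (1.39 to 1.59). In a cluster of 141 KO and 142 WT cells led by Slco1a4 and Brinp1, Gabarap was at 1.03 and Optn at 0.69.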
